A study of Mus musculus with 10 samples.

Results

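The hedgehog genes described here are the ligand *Shh*, its receptor *Ptch1*, the signal transducer *Smo*, the co-receptors *Boc* and *Gas1*, the ligand-binding inhibitor *Hhip* and the transcription factors *Gli1*, *Gli2* and *Gli3*. They were chosen by symbol and are 9 of the 32285 genes counted. At least 1 UMI was found for 8 of them at E11.5 and for all 9 at both later stages. UMIs are unique molecular identifiers, each of which stands for 1 captured RNA molecule. The cells came from wild type NMRI mouse embryos and were measured by droplet scRNAseq with a kit that reads the 3′ ends of RNA. Whole mandibles were dissociated at E11.5 (8 mandibles), and lower incisor buds at E14.5 (4 mandibles) and E16.5 (2 mandibles). The labels name no transgene and no treatment. The cells of a stage could not be assigned to embryos, so each stage is 1 sample, stage and dissected tissue cannot be told apart, and no test between groups was possible.

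In hedgehog signalling, cells that make *Shh* secrete it to their neighbours. The ligand binds Ptch1 on a receiving cell, which frees Smo and lets the Gli factors act on their targets. *Ptch1*, *Gli1* and *Hhip* are themselves targets, so their RNA is widely read as a sign that a cell receives the signal, and both Ptch1 and Hhip hold ligand back. Gas1 and Boc bind ligand at the cell surface. Gli2 works mainly as the activator and Gli3 mainly as the repressor of the targets. In the developing tooth, *Shh* is known from the dental lamina, from the enamel knot, which is a signalling centre of the epithelium, and later from cells that will become ameloblasts, while its targets are known from the epithelium and the underlying mesenchyme.

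The cells described had 700 or more genes and no more than 20% mitochondrial UMIs. They numbered 6573, 6091 and 4511 at the 3 stages, with median depths of 5664, 3471 and 6260 UMIs. Between 13 and 17 barcodes were shared by any pair of stages. Clusters named from marker lists gave 4622 mesenchymal and 989 epithelial cells at E14.5, and 2529 and 1763 at E16.5. The epithelium of those stages had 11 and 12 of the 12 epithelial markers in at least 10% of its cells, and the mesenchyme had 10 and 11 of the 11 mesenchymal markers. Summed epithelial markers reached 1890 and 2509 CPM in the epithelium against 70.4 and 164 CPM in the mesenchyme, where CPM are the counts found in a group of cells per 1000000 of its UMIs. At E11.5 the mesenchyme held 6010 cells, and no cluster was epithelial. The E11.5 epithelium is 10 cells chosen one by one from the markers, and it entered no comparison. At least 10% of these cells held each of the 12 epithelial markers, which chose them, and each of 10 of the 11 mesenchymal markers. The lists summed to 1488 and 218 CPM. Hemoglobin and other erythroid markers summed to 1171 and 1107 CPM in the epithelium and 970 and 1959 CPM in the mesenchyme of E14.5 and E16.5, so red cell RNA was found in every group, and the part of RNA from other cells in the low values below was not tested.

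The members lie on several chromosomes of GRCm38 (GENCODE vM21), with *Ptch1*, *Gli3* and *Gas1* all on chromosome 13. *Shh* (ENSMUSG00000002633) spans chr5:28456815-28467256 on the minus strand, *Ptch1* (ENSMUSG00000021466) chr13:63508328-63573598 on the minus strand and *Gli1* (ENSMUSG00000025407) chr10:127329882-127341974 on the minus strand. *Gli2* (ENSMUSG00000048402) spans chr1:118834132-119053619 on the minus strand, *Gli3* (ENSMUSG00000021318) chr13:15463235-15730026 on the plus strand and *Smo* (ENSMUSG00000001761) chr6:29735503-29761365 on the plus strand. *Hhip* (ENSMUSG00000064325) spans chr8:79965851-80058006, *Boc* (ENSMUSG00000022687) chr16:44485049-44558897 and *Gas1* (ENSMUSG00000052957) chr13:60174405-60177365, each on the minus strand. All UMIs of a gene were counted together, so isoforms are not separated here.

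The promoters of *Ptch1* and *Hhip* are shown. The products of both targets bind Shh protein, and both were past 2 fold higher in the mesenchyme than in the epithelium. They are the 250 bases before the start of the RefSeq transcript (GRCm38.p6), 5′ to 3′ on the minus strand of the genome. The motif TGGGTGGTC, the consensus bound by Gli factors, was searched in all 9 letters on both strands. It was in 74 of 32851 promoters of this length, or 0.225%, and in 0 of the 6 members with an entry (*Ptch1*, *Gli2*, *Gli3*, *Smo*, *Hhip* and *Gas1*), while *Shh*, *Gli1* and *Boc* are named only. Capitals mark the 9 bases nearest to the motif, with 3 mismatches in *Ptch1* and 2 in *Hhip*, where they match its reverse complement. As few mismatches occurred in 98.6% and 51.8% of promoters, and the sequences were 78.4% and 76% G or C.
Ptch1 (chr13:63565736-63565985): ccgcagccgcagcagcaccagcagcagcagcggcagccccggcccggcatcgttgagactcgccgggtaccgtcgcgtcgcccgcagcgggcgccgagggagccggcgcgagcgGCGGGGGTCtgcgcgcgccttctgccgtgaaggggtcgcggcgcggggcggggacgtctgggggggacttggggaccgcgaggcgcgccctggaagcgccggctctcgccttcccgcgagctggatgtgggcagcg
Hhip (chr8:80058009-80058258): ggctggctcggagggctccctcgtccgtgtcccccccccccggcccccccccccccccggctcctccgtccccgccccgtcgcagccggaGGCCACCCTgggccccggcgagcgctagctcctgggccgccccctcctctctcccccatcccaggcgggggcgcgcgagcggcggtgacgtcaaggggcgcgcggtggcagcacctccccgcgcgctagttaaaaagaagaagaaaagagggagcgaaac
The *Ptch1* window lies inside the span of the gene given above. The capitals are a description of the letters and not of a site.

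*Shh*, the ligand, was an epithelial RNA. At E14.5 its 630 UMIs in the epithelium gave 90.0 CPM (95% Poisson interval 83.1 to 97.3), while 31 UMIs in the mesenchyme gave 1.73 CPM (1.18 to 2.46). At E16.5 the epithelium reached 175 CPM (169 to 181; 3363 UMIs) and the mesenchyme 3.22 CPM (2.46 to 4.14; 60 UMIs). The intervals, which cover counting error only here and throughout, were far apart at both stages. The log2 ratio of epithelium over mesenchyme, with 10 CPM added to both, was 3.09 at E14.5 (2.96 to 3.21) and 3.81 at E16.5 (3.70 to 3.91). The size of the *Shh* ratio depended on the CPM added, with 5.06 and 5.38 for 1 CPM and 1.44 and 2.08 for 50 CPM, past 2 fold in each case.

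The share of epithelial cells with a *Shh* UMI was 13.4% at E14.5 (exact Clopper-Pearson interval 11.4 to 15.7) and 29.3% at E16.5 (27.2 to 31.5). In the mesenchyme, a tissue known not to make *Shh*, the shares were 0.563% (0.368 to 0.823) and 1.42% (0.999 to 1.97), with median depths of 3250 and 5916 UMIs against 4266 and 6735 in the epithelium. With epithelial cells of at least 2000 UMIs thinned to 2000, and the others left out, the epithelial shares were 8.61% and 18.5%. Other lineages also held *Shh* UMIs. At E14.5 the erythroid cells had 16.7 CPM (9.37 to 27.6) and the endothelial, immune and glial cells had no UMI, and at E16.5 the endothelial, erythroid and immune cells had 23.0, 24.5 and 24.4 CPM. Those above 0 lay between the levels of the mesenchyme and the epithelium.

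A few cells carried most of the ligand RNA. Of the 133 *Shh*+ epithelial cells of E14.5, 55 had 1 UMI, 59 had 2 to 9, and 19 had 10 or more, up to 35, and those 19 held 54.1% of the UMIs (341 of 630). Of the 516 at E16.5, 136 had 1 UMI, 285 had 2 to 9, and 95 had 10 or more, up to 118, and the 95 held 61.1% (2055 of 3363). The cells with 10 or more were also deeper, with medians of 15570 and 16834 UMIs at the 2 stages against 4233.5 and 5922 in cells with none, and the part of depth in this concentration was not tested. *Shh* was spread over more cells at E16.5, and its richest cells held more UMIs than those of E14.5.

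No *Shh* UMI was found at E11.5 among the 47513863 UMIs of all cells kept, which allows a level of up to 0.0631 CPM (3 counts of the total). In the 6010 mesenchymal cells of that stage 0 UMIs allow up to 0.0689 CPM. In the 10 epithelial cells 0 UMIs allow up to 16.8 CPM, and 0 of 10 cells a share of up to 30% of cells with a UMI, so the epithelium of E11.5 is too small for its level of *Shh* to be set beside the later stages. The 2135 barcodes left out by the filter at E11.5 held 2 *Shh* UMIs. *Ihh* and *Dhh*, the other hedgehog ligands, had at most 1 UMI in any stage and lineage.

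*Ptch1*, the receptor, was highest in the mesenchyme at E14.5 and E16.5. Its mesenchymal level was 113 CPM (110 to 116) at E11.5, 288 CPM (281 to 296) at E14.5 and 522 CPM (512 to 532) at E16.5, and 37.8%, 52.5% and 83.6% of the cells had a UMI. Its epithelial level was 119 CPM (111 to 127) at E14.5 and 227 CPM (220 to 234) at E16.5, in 42.8% and 62.0% of the cells. Epithelium over mesenchyme was -1.21 (-1.31 to -1.11) and -1.17 (-1.22 to -1.12) on the log2 scale, so that the receptor was lower in the tissue that held the ligand at both stages, yet was found in many of its cells. The 10 epithelial cells of E11.5 held 20 UMIs, or 112 CPM (68.3 to 173), a range that includes the mesenchymal level. In other lineages *Ptch1* was 143 CPM (119 to 171) in E11.5 muscle, 39.4 and 48.6 CPM in the endothelium of E14.5 and E16.5, and 161 and 215 CPM in the erythroid cells of those stages. Those erythroid cells also held mesenchymal markers that summed to 1776 and 1473 CPM. The part of RNA from other cells in their *Ptch1* was not tested.

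*Gli1*, the factor induced by the pathway, differed less between the lineages. It was at 15.1 CPM (14 to 16.3) in the mesenchyme of E11.5, 44.8 CPM (41.7 to 48.0) at E14.5 and 45.7 CPM (42.6 to 48.8) at E16.5. The epithelium had 32.8 CPM (28.7 to 37.4) and 36.2 CPM (33.6 to 39.0) at E14.5 and E16.5. Epithelium over mesenchyme was -0.35 (-0.52 to -0.19) and -0.27 (-0.38 to -0.15), short of 2 fold at each stage. Endothelial cells had 6.15 and 3.53 CPM, the lowest of the 3 lineages.

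*Hhip*, which binds ligand at the cell surface, was nearly absent from the epithelium, with 3 UMIs at E14.5 (0.428 CPM, 0.0883 to 1.25) and 25 at E16.5 (1.30 CPM, 0.843 to 1.92). The mesenchyme had 2.25 CPM (1.83 to 2.74) at E11.5, 13.0 CPM (11.4 to 14.8) at E14.5 and 41.4 CPM (38.5 to 44.4) at E16.5. Its log2 ratio of epithelium over mesenchyme was -1.14 (-1.26 to -0.99) and then -2.18 (-2.29 to -2.07). Muscle cells of E11.5, at 39.6 CPM (27.5 to 55.4), held more *Hhip* than the mesenchyme of that stage.

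The co-receptor *Gas1* had the opposite course to *Ptch1* in the mesenchyme. It was at 233 CPM (229 to 238) at E11.5, with a UMI in 55.3% of cells, and at 64.1 CPM (60.5 to 67.9) and 56.6 CPM (53.2 to 60.1) at E14.5 and E16.5, in 18.3% and 24.6% of cells. The epithelium had 6.28 CPM (4.57 to 8.43) and 4.90 CPM (3.96 to 6.0), and epithelium over mesenchyme was -2.19 (-2.36 to -1.99) and -2.16 (-2.28 to -2.03). *Boc*, the other co-receptor, had between 4.57 and 5.23 CPM in both lineages at every stage compared, and its intervals of epithelium over mesenchyme spanned 0 at E14.5 (-0.05, -0.23 to 0.16).

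*Smo*, *Gli2* and *Gli3*, which relay the signal inside the cell, stayed within 2 fold in the comparisons of lineages and of stages. *Smo* had 82.1, 61.4 and 62.7 CPM in the mesenchyme of the 3 stages and 51.0 and 66.1 CPM in the epithelium of E14.5 and E16.5. Its epithelium over mesenchyme was -0.23 at E14.5 (-0.37 to -0.08) and 0.07 at E16.5 (-0.03 to 0.17). *Gli3*, mainly a repressor, had 77.9, 73.6 and 78.2 CPM in the mesenchyme and 53.4 and 56.7 CPM in the epithelium, a log2 ratio of -0.40 at both stages. *Gli2* had 20.8, 13.5 and 11.3 CPM in the mesenchyme and 9.28 and 9.64 CPM in the epithelium, and its interval spanned 0 at E16.5 (-0.11, -0.26 to 0.03).

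**Figure D1:**
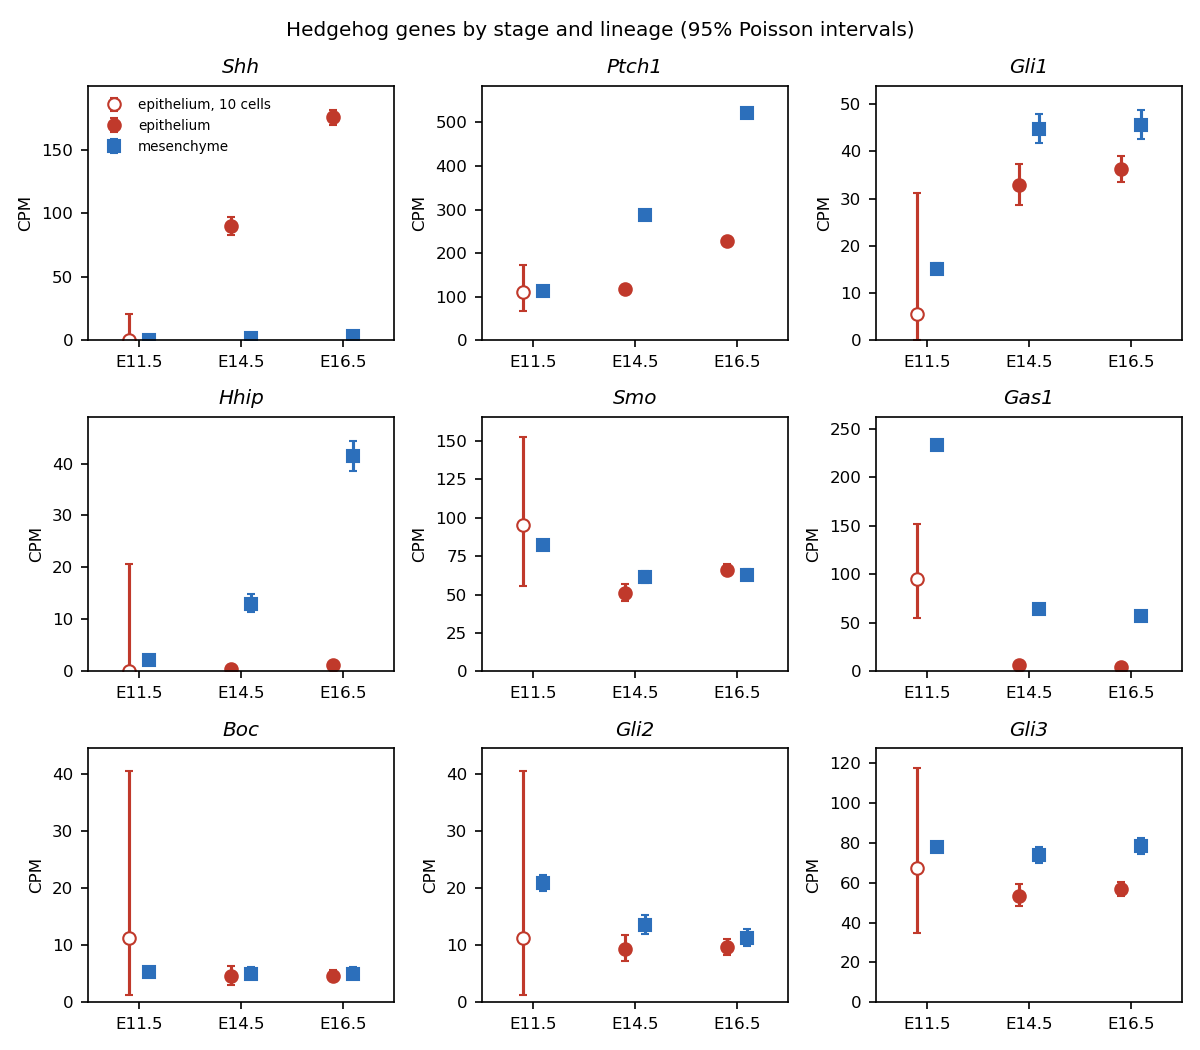
Level of each hedgehog gene (CPM, vertical axis, starting at 0) by stage in the epithelium (circles) and the mesenchyme (squares), with 95% Poisson intervals as bars; the open circle is the 10 epithelial cells of E11.5. *Shh* is seen in the epithelium of E14.5 and E16.5, *Ptch1* and *Hhip* are highest in the mesenchyme of E16.5, and *Gas1* is highest in the mesenchyme of E11.5.

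Among the 9 members, all of which had the 50 UMIs required over both groups, 1 was past 2 fold higher and 3 were past 2 fold lower in the epithelium than in the mesenchyme, and these were the same 4 genes at both stages: *Shh*, and *Ptch1*, *Hhip* and *Gas1*. Over all genes compared, 3.48% were past 2 fold higher and 4.05% lower at E14.5, and 3.35% and 4.12% at E16.5. The median log2 ratio of the members was -0.35 at E14.5 and -0.27 at E16.5, against 0.01 and 0.04 over all genes. Among these 9 members, the ligand and those that bind it at the cell surface differed most between the lineages, *Boc* excepted. *Boc* differed least of all, at -0.05 and -0.04, with 4.57 and 4.59 CPM in the epithelium, below the 10 CPM added. *Smo*, *Gli1*, *Gli2* and *Gli3* stayed within 2 fold.

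**Figure D2:**
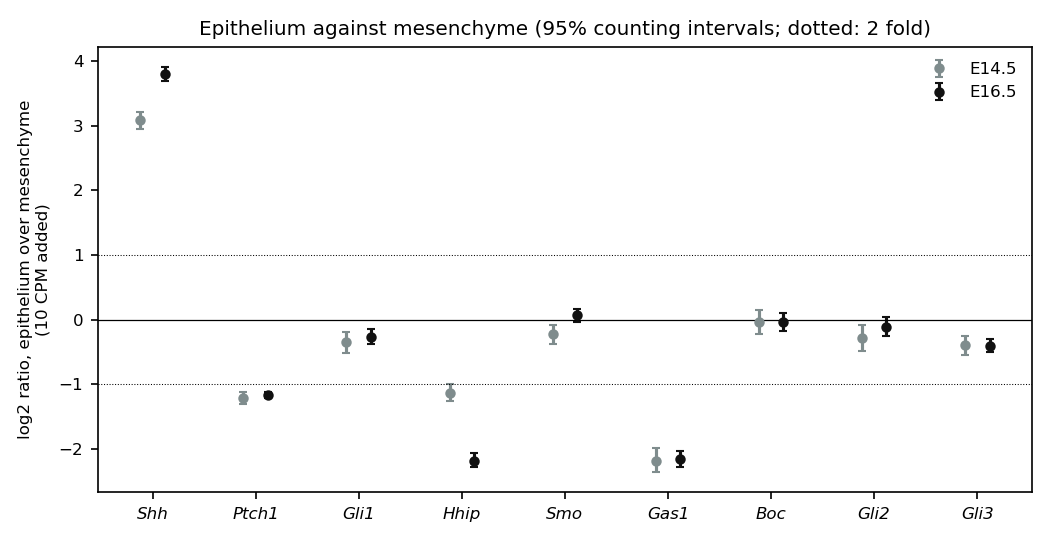
Log2 ratio of epithelium over mesenchyme (vertical axis, 10 CPM added) for each hedgehog gene at E14.5 (grey) and E16.5 (black), with 95% counting intervals as bars and dotted lines at 2 fold. *Shh* is above the upper line at 3.09 and 3.81, *Ptch1*, *Hhip* and *Gas1* are below the lower line, and the other 5 genes lie between the lines.

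Between stages, *Ptch1*, *Gli1*, *Hhip* and *Gas1* were the mesenchymal members with the larger differences. From E11.5 to E14.5 the log2 ratio was 1.28 for *Ptch1* (1.23 to 1.33), 1.13 for *Gli1* (1.02 to 1.23) and -1.71 for *Gas1* (-1.79 to -1.64), which made 2 of 8 members past 2 fold higher and 1 lower, where 2.8% and 1.9% of all genes were. With 50 CPM added *Gli1* was short of 2 fold, at 0.54. *Hhip* was just short of it, at 0.91 (0.79 to 1.03), and *Gli2* (-0.39) and *Smo* (-0.37) were lower by less. From E14.5 to E16.5, *Hhip* was the only member past 2 fold, at 1.16 (1.02 to 1.29), where 1.21% of all genes were higher and 0.376% lower. *Ptch1* followed at 0.83 (0.79 to 0.88), while *Gli1* had the same level within its interval (0.02, -0.09 to 0.14). *Gas1* differed little in that step (-0.16, -0.26 to -0.05). As the tissue dissected also changed between E11.5 and E14.5, the first step cannot be assigned to age or to tissue. Each stage is 1 sample, so age and sample cannot be told apart in the second step either.

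In the epithelium, *Shh* and *Ptch1* had close stage ratios from E14.5 to E16.5, 0.89 (0.78 to 1.0) and 0.88 (0.78 to 0.98). *Smo* had 0.32 (0.18 to 0.47), and the other 5 members compared were between -0.13 and 0.11. None of the 8 members was past 2 fold in either direction, where 1.21% of all genes were higher and 0.291% lower.

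The balance of the Gli factors was described by the share of *Gli1* among the UMIs of the 3 *Gli* genes. It was 13.3% in the mesenchyme of E11.5 (12.3 to 14.2), 33.9% at E14.5 (32.0 to 35.9) and 33.8% at E16.5 (31.9 to 35.7). The epithelium had 34.4% (30.8 to 38.1) and 35.3% (33.2 to 37.5) at the later stages. The intervals of the lineages overlapped at both later stages, and that of E11.5 was apart from all of them.

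The *Shh* RNA of the epithelium was concentrated in few of its clusters, which were made without the hedgehog genes and are called here by their leading genes. At E14.5, 80 cells led by *Shh*, *Wif1*, *Thbs1*, *Fgf4* and *Slc40a1* held 462 of the 630 UMIs, or 730 CPM (665 to 800), with a *Shh* UMI in 81.2% of the cells. A list of 12 enamel knot genes, *Shh* not among them, summed to 1431 CPM there and to between 110 and 170 CPM in the other 3 clusters. The others held 26.7 CPM (334 cells led by *Crabp1*), 40.2 CPM (304 cells led by mitochondrial and hemoglobin genes) and 12.1 CPM (271 cells led by *Krt15*).

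*Ptch1* was not highest in the cluster with most *Shh*. The 80 cells with most *Shh* had 136 CPM of *Ptch1* (109 to 168), and the cells led by mitochondrial and hemoglobin genes, which had a median of 6.10% mitochondrial UMIs and of 3077 UMIs, had 205 CPM (185 to 227). That cluster was also the highest for *Gli1*, at 55.0 CPM, and for *Gli3*, at 100 CPM, and the part of its RNA quality in those levels was not tested. The cells led by *Crabp1* were lowest in *Ptch1* and *Gli1*, with 68.4 and 20.5 CPM. The 80 cells with most *Shh* were next in *Ptch1* after the top cluster. The cells led by *Krt15* had 89.4 CPM of *Ptch1* in their *Shh*+ and 104 CPM (88.3 to 121) in their *Shh*- cells, intervals that overlap that of the 80 cells. *Gas1* and *Hhip* had no UMI in the 80 cells with most *Shh*.

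At E16.5 the ligand was found in more than 1 cluster. The 360 cells led by *Stmn2*, *Slc40a1*, *Igfbpl1*, *Vwde* and *Ambn* (ameloblastin, an enamel matrix protein) had 424 CPM of *Shh* (403 to 446), in 59.7% of the cells. The 56 cells led by *Enpp2* had 229 CPM and the 705 cells led by histone and mitotic genes had 162 CPM. The lowest levels were 51.3 CPM in 136 cells led by *Pcp4* and 40.4 CPM in 506 cells led by *Sparcl1*. The last cluster, which also held the most of a list of stellate reticulum and stratum intermedium genes (827 CPM, against 117 to 460 CPM), had the highest epithelial *Ptch1*, 421 CPM (402 to 441), and *Gli1*, 55.5 CPM, with a median of 6.0% mitochondrial UMIs. The cluster with most *Shh* was next in *Ptch1*, at 258 CPM (242 to 275). At neither stage was the cluster with most ligand RNA the one with most receptor RNA, but at both it came next. The cluster with most *Ptch1* had the lowest median depth and the highest median mitochondrial share of its epithelium at each stage. These were 3077 UMIs and 6.10% at E14.5, and 4239.5 UMIs and 6.0% at E16.5. The part of RNA quality in this order was not tested.

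The mesenchyme of E11.5 was uneven in its response genes. The 1189 cells led by *Plagl1*, *Cited1*, *Foxd2os*, *Foxf1* and *Itm2a* had 218 CPM of *Ptch1* (208 to 228) and 25.8 CPM of *Gli1* (22.6 to 29.4), but 60.9 CPM of *Gas1* (55.8 to 66.2). The 3 clusters led by *3110099E03Rik*, *Shox2* and *Pax3* had 84.1, 72.1 and 68.7 CPM of *Ptch1*, between 7.60 and 14 CPM of *Gli1*, and 298, 268 and 258 CPM of *Gas1*. The *Plagl1* cells also had the highest share of *Gli1* among *Gli* UMIs, 24.1% (21.4 to 26.9) against 7.59% to 17.6% in the other clusters. *Foxf1*, one of the leading genes of these cells, and *Foxf2* are forkhead targets of the pathway in facial mesenchyme. They were at 69.5 and 26.1 CPM in the *Plagl1* cells, against 4.33 to 5.98 CPM of *Foxf1* in those 3 clusters. *Osr2*, another listed target, was instead among the leading genes of the *Shox2* cells, which had 72.1 CPM of *Ptch1*. Levels of the other listed targets, and of *Foxf2* outside the *Plagl1* cells, are not given by cluster here. The fifth cluster, 1176 cells led by hemoglobin genes with a median of 2028.5 UMIs and 9.41% mitochondrial UMIs, had 181 CPM of *Ptch1* and 246 CPM of *Gas1*.

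In the mesenchyme of E14.5, *Ptch1* and *Gas1* were again at opposite ends in 1 cluster. The 526 cells led by *Osr1*, *Ebf2* and *Ogn* had the least *Ptch1*, 139 CPM (120 to 160), and the most *Gas1*, 273 CPM (246 to 302). The other 4 clusters had 264 to 367 CPM of *Ptch1* and 15.1 to 82.0 CPM of *Gas1*. The highest *Ptch1*, 367 CPM (339 to 397), was in 646 cells led by *Ccnd1* and *Pitx1*, and the highest *Gli3*, 122 CPM (111 to 133), in 1417 cells led by *Ibsp*. *Hhip* was between 17.2 and 25.0 CPM except in the 1256 cells led by *Crym*, *Dlx2* and *Egr3*, where it was 3.46 CPM.

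At E16.5 *Hhip* set the mesenchymal clusters apart more than the other members did. It had 129 CPM (117 to 142) in the 512 cells led by *Pdzrn4* and *Sfrp4*, 57.3 CPM (47.2 to 68.9) in the 342 cells led by *Bmp3*, *Dkk2* and *Igf1*, and 4.31 CPM (2.46 to 7.0) in the 456 cells led by *Ifitm5*, *Smpd3*, *Itga4* and *Gldn*. *Gas1* was also highest in the first of these, at 146 CPM (133 to 159), and lowest in the last, at 11.6 CPM (8.38 to 15.6). *Ptch1* ranged less, from 405 CPM (385 to 426) in the *Ifitm5* cells to 652 CPM (627 to 677) in 728 cells led by *Lypd1* and *Col8a1*. *Gli1* ran from 33.4 to 58.6 CPM with its lowest and highest level in the same clusters as *Ptch1*.

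**Figure D3:**
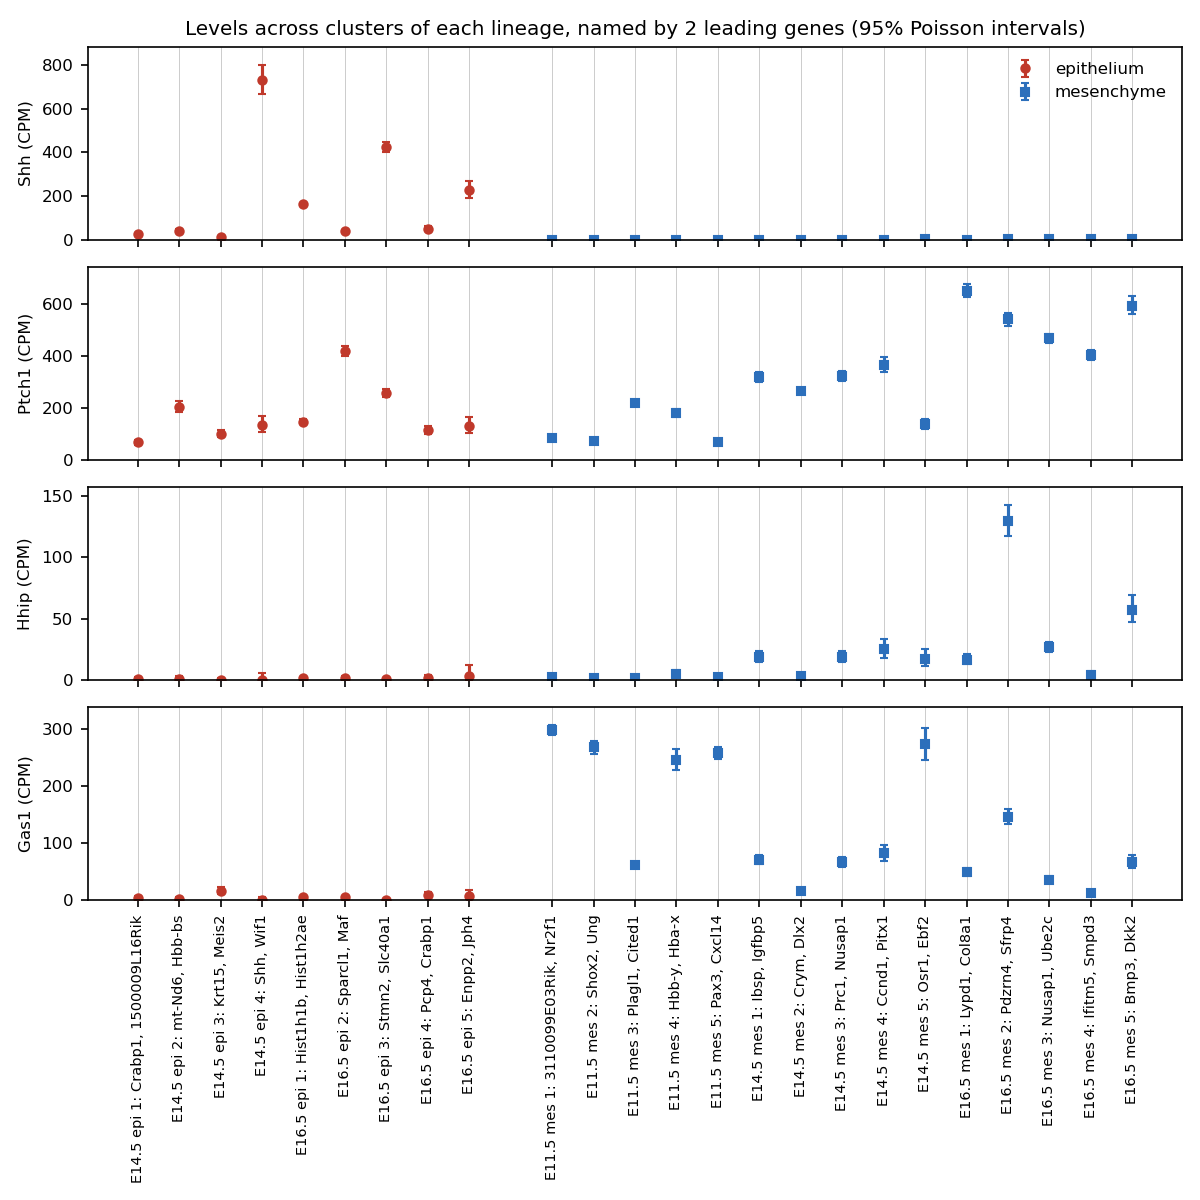
Levels of *Shh*, *Ptch1*, *Hhip* and *Gas1* (CPM, vertical axes, starting at 0) in each cluster of the epithelium (circles) and the mesenchyme (squares), named by stage and 2 leading genes, with 95% Poisson intervals as bars. *Shh* stands out in 1 cluster of E14.5 (730 CPM) and 1 of E16.5 (424 CPM), *Hhip* in the *Pdzrn4* cells of E16.5 (129 CPM), and *Gas1* in 4 of 5 mesenchymal clusters of E11.5 and in the *Osr1* cells of E14.5 (273 CPM).

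*Shh*+ epithelial cells, those with at least 1 *Shh* UMI, were next set against the *Shh*- cells of the same stage. Of the *Shh*+ cells, 55 of 133 at E14.5 and 136 of 516 at E16.5 had 1 UMI. Other lineages also held *Shh* UMIs, so a *Shh*+ cell need not be one that makes the ligand. At E14.5, 133 cells stood against 856, with median depths of 4831 and 4233.5 UMIs. *Ptch1* was at 128 CPM (109 to 148) in the *Shh*+ and 117 CPM (108 to 126) in the *Shh*- cells, a log2 ratio of 0.12 (-0.11 to 0.35). *Gli1* was at 36.8 and 31.9 CPM (0.16, -0.21 to 0.52), and *Gli3* at 37.6 and 57.1 CPM (-0.50, -0.85 to -0.15). A difference in the receptor or in *Gli1* was not detectable at this depth over the whole epithelium. Within clusters *Gli1* had intervals away from 0 in opposite directions, at -1.63 (-2.75 to -0.37; 14 and 7 UMIs) in the 80 cells with most *Shh* and at 0.80 (0.13 to 1.42; 21 and 79 UMIs) in the cells led by mitochondrial and hemoglobin genes. A deeper cell is more likely to show a UMI of any gene, and the *Shh*+ cells were the deeper ones.

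At E16.5, 516 *Shh*+ cells stood against 1247 *Shh*- cells, at 8897.5 and 5922 UMIs. *Ptch1* was lower in the *Shh*+ cells, 193 CPM (183 to 203) against 248 CPM (239 to 257), a log2 ratio of -0.35 (-0.44 to -0.26). *Gli1*, at 29.7 and 40.2 CPM (-0.34, -0.52 to -0.16), *Gli3*, at 49.3 and 61.2 CPM (-0.26, -0.42 to -0.11), and *Boc*, at 1.80 and 6.28 CPM (-0.46, -0.64 to -0.27), were lower too. Cells with fewer than 2000 UMIs were then left out and the rest thinned to 2000. The ratio of *Ptch1* was -0.24 (-0.52 to 0.04) and that of *Gli1* -0.02 (-0.58 to 0.53), intervals that span 0. None of the 5 members compared at E14.5 nor of the 7 at E16.5 was past 2 fold, where 1.82% and 0.617% of all genes were higher and 0.516% and 0.438% lower.

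The lower *Ptch1* level of *Shh*+ cells was not shared by all clusters of E16.5. The ratio was -0.35 (-0.51 to -0.19) in the cells led by histone genes, with 125 against 162 CPM, and -0.61 (-0.84 to -0.38) in the *Sparcl1* cells, with 286 against 441 CPM. In the *Stmn2* cells, where *Shh* was highest, it was 0.47 (0.25 to 0.68), with 281 against 200 CPM. In the *Pcp4* and *Enpp2* cells the intervals spanned 0 (-0.02 and -0.44), and so they did in all 4 clusters of E14.5, where the ratio ran from -0.19 to 0.19. The clusters were compared in this way after the pooled values had been seen.

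By the number of *Shh* UMIs in the cell, *Ptch1* at E16.5 was 248 CPM (239 to 257) with none, 229 CPM (205 to 255) with 1, 175 CPM (161 to 189) with 2 to 9 and 197 CPM (180 to 216) with 10 or more. At E14.5 the levels were 117, 159, 129 and 91.8 CPM (64.6 to 126 for the last), and the intervals of the 3 *Shh*+ classes overlapped. No class with *Shh* UMIs was thus richer in *Ptch1* than the cells with none at E16.5, where the median depth was 5922, 6813, 8471 and 16834 UMIs in the 4 classes.

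A few other genes of the pathway differed between *Shh*+ and *Shh*- cells. Of the listed pathway genes, 3 of 18 compared were past 2 fold higher at E14.5, *Arrb1* and *Scube3* among them, and 1 was lower. At E16.5 *Arrb1* and *Scube3* were higher among 26 and none was lower. Over all genes, 1.82% were higher and 0.516% lower at E14.5, and 0.617% and 0.438% at E16.5. *Scube3*, of the family that helps release lipid-bearing Shh from the cell, was at 94.7 against 33.7 CPM at E14.5 (1.26) and at 81.4 against 34.6 CPM at E16.5 (1.04, 0.88 to 1.19). *Arrb1*, an arrestin, was at 30.1 against 2.29 CPM (1.70) and at 41.3 against 6.02 CPM (1.68). *Gpc3*, a glypican that holds hedgehog ligand away from Ptch1, was the lower gene, at 43.6 against 127 CPM (-1.36) at E14.5. Of the listed targets none of 5 was past 2 fold at E14.5 and 1 of 9 was at E16.5, *Bcl2*, an inhibitor of cell death, at 61.6 against 25.4 CPM (1.02, 0.85 to 1.18).

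The genes highest in *Shh*+ over *Shh*- cells at E14.5 were *Wif1*, *Thbs1*, *Fgf4*, *Wnt10a*, *Slco3a1*, *Bach2*, *Ltb* and *Slc40a1*, with log2 ratios from 3.33 down to 2.37, and *Fgf4*, a growth factor of the enamel knot, was at 69.1 against 1.06 CPM. Those of E16.5 were *Igfbpl1*, *Vwde*, *Fgf9*, *Slc40a1*, *Cttnbp2*, *Frem1*, *Pam* and *Camk2d*, from 2.62 down to 1.80. *Mest*, *Sostdc1*, *Igfbp5* and *Acaa1b* were lowest at E14.5, and *Slc12a2*, *Igfbp3*, *Sostdc1* and *Pthlh* at E16.5. *Sostdc1*, a Bmp and Wnt inhibitor of the tooth germ, was at 120 against 506 CPM (-1.99) and 312 against 1036 CPM (-1.70). *Slc40a1* was among the highest and *Sostdc1* among the lowest at both stages.

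The *Shh*+ cells were richer in the enamel knot list, 784 against 142 CPM at E14.5 (2.39) and 420 against 137 CPM at E16.5 (1.55). A list of 4 ameloblast genes was at 15.0 against 2.64 CPM (0.99) and 36.5 against 8.45 CPM (1.33). The oral epithelium list was lower, 89.4 against 209 CPM (-1.14) and 60.9 against 159 CPM (-1.25). So was a list of 4 genes of incisor stem cells and their early progeny, 49.6 against 88.1 CPM (-0.72) and 38.1 against 70.5 CPM (-0.74). Its genes were *Sox2*, *Lgr5*, *Bmi1* and *Sfrp5*, and the authors describe *Sfrp5* as a marker of the early progeny. The differences of the lists are of level, and both kinds of cells held RNA of all 4 lists. Nor were the enamel knot and ameloblast lists particular to the *Shh*+ epithelium. At E16.5 the mesenchymal cells led by *Lypd1* held more of both, 551 and 127 CPM. At E14.5 the mesenchymal cells led by *Ibsp* held 95.1 CPM of the enamel knot list, but 22.0 CPM of the ameloblast list, more than the *Shh*+ cells. The dental mesenchyme list was also higher in the *Shh*+ cells, 157 against 52.7 CPM (1.41), at E14.5, and its part in their values was not tested.

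*Gli1*+ mesenchymal cells, those with at least 1 *Gli1* UMI, had more *Ptch1* than *Gli1*- cells at each stage. The levels were 171 CPM (161 to 181) against 103 CPM (99.3 to 106) at E11.5, 374 CPM (354 to 396) against 268 CPM (260 to 277) at E14.5, and 629 CPM (609 to 649) against 471 CPM (459 to 483) at E16.5. The log2 ratios were 0.68 (0.59 to 0.77), 0.47 (0.38 to 0.55) and 0.41 (0.35 to 0.47). The *Gli1*+ cells numbered 567, 684 and 643 and were deeper, with 8608, 4168.5 and 7294 UMIs against 5473, 3137 and 5655.5. Thinned to 2000 UMIs, the ratios were 0.78 (0.40 to 1.13), 0.41 (0.21 to 0.60) and 0.32 (0.14 to 0.49). The intervals thus stayed above 0 at matched depth, with cells of fewer than 2000 UMIs left out. A list of 10 cycling genes was also higher in the *Gli1*+ cells, by 0.20, 0.47 and 0.35, and its part in the *Ptch1* ratio was not tested.

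*Ptch1* also went with the number of *Gli1* UMIs in a cell. At E11.5 it was 103, 159 and 216 CPM in cells with 0, 1 and 2 to 9 *Gli1* UMIs. At E14.5 it was 268, 371 and 386 CPM, where the last pair had overlapping intervals, and at E16.5 it was 471, 593 and 701 CPM. The 3 classes were in the same order at every stage. Median depth rose over them too, with 5473, 8031.5 and 13564 UMIs at E11.5. At E14.5 it was 3137, 3924 and 5912 UMIs, and at E16.5 5655.5, 6608.5 and 9594. *Shh* in these mesenchymal cells, with 4 to 27 UMIs a class, had the same order at the later stages. It was at 1.38, 2.63 and 5.68 CPM at E14.5, and at 2.14, 3.76 and 8.91 CPM at E16.5. The part of depth and of RNA from other cells in the *Ptch1* levels was not tested.

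**Figure D4:**
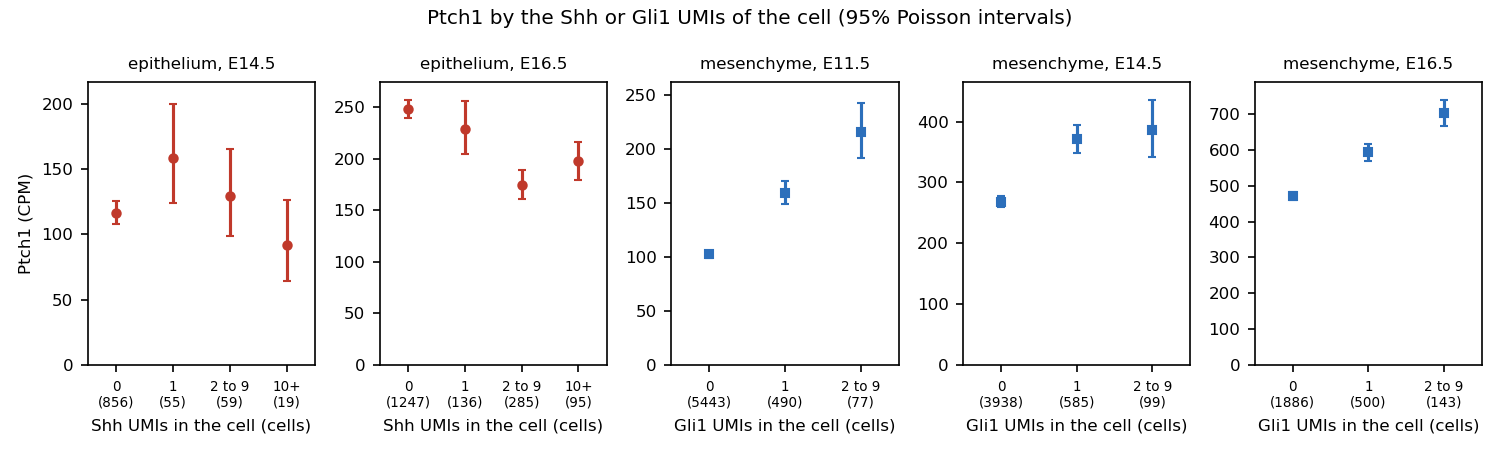
*Ptch1* (CPM, vertical axes, starting at 0) in cells grouped by their *Shh* UMIs (epithelium, circles) or *Gli1* UMIs (mesenchyme, squares), with the number of cells in brackets and 95% Poisson intervals as bars. *Ptch1* is higher with more *Gli1* UMIs in the mesenchyme of each stage, from 103 to 216 CPM at E11.5, and is not higher with more *Shh* UMIs in the epithelium of E16.5.

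Within clusters, *Ptch1* was higher in the *Gli1*+ cells in 5 of 5 mesenchymal clusters at each stage. The intervals lay above 0 in 3, 4 and 5 of them from the first stage to the last, and the log2 ratios ran from 0.11 to 1.05, from 0.31 to 0.99 and from 0.21 to 0.58. At E11.5 the smallest ratio was in the *Plagl1* cells, which had the most *Ptch1*, with 230 against 213 CPM (0.11), while the *Shox2* and *Pax3* cells had 152 against 68.2 CPM (1.05) and 130 against 59.3 CPM (1.01). At E16.5 the smallest ratio was instead in the cluster with the least *Ptch1*, the *Ifitm5* cells, with 452 against 389 CPM (0.21).

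*Gas1* did not keep its direction. It was at 155 CPM in the *Gli1*+ and 247 CPM in the *Gli1*- mesenchyme of E11.5 (-0.64, -0.73 to -0.55), at 60.7 and 64.9 CPM at E14.5 (-0.08, -0.28 to 0.10), and at 64.5 and 52.8 CPM at E16.5 (0.25, 0.09 to 0.40). The value of E16.5 was -0.015 (-0.54 to 0.49) at 2000 UMIs, and that of E11.5 was -0.48 (-0.90 to -0.08). Within clusters *Gas1* was lower in the *Gli1*+ cells in 5 of 5 at E11.5, with 3 intervals below 0, and higher in 4 of 5 at E14.5 and 5 of 5 at E16.5, with 1 and 3 intervals above 0. *Hhip* was at 49.1 against 37.7 CPM at E16.5 (0.31, 0.13 to 0.48), and its intervals spanned 0 at the earlier stages.

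**Figure D5:**
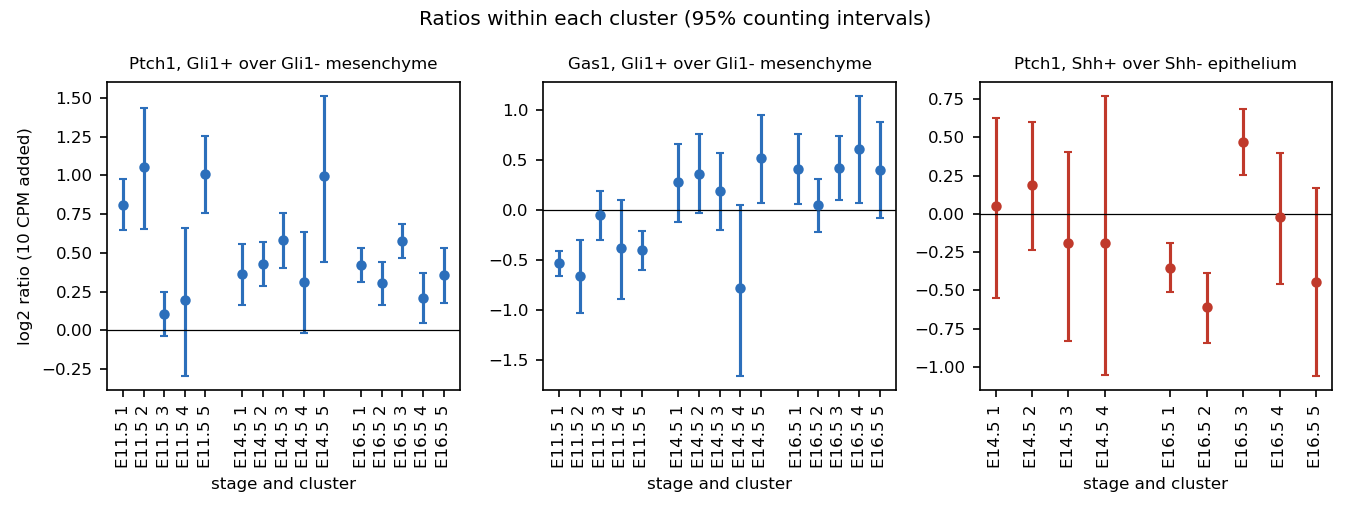
Log2 ratios (vertical axes, 10 CPM added) within each cluster of *Ptch1* and *Gas1* in *Gli1*+ over *Gli1*- mesenchyme (blue) and of *Ptch1* in *Shh*+ over *Shh*- epithelium (red), with 95% counting intervals as bars and clusters numbered by size within a stage. *Ptch1* is above 0 in all 15 mesenchymal clusters, *Gas1* is below 0 in the 5 of E11.5, and *Ptch1* in the epithelium of E16.5 is at 0.47 in cluster 3 and below 0 in the others.

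None of the other members compared, 7 at E11.5 and E14.5 and 8 at E16.5, was past 2 fold between *Gli1*+ and *Gli1*- mesenchyme. Over all genes 0%, 0% and 0.00893% were higher and 0.0084%, 0.00942% and 0% lower at the 3 stages, so that hardly any gene was past that size. The median ratio of the members was 0.13, 0.18 and 0.19, against 0.04, 0.02 and 0.04 over all genes. At E11.5 *Ptch1* was among the 8 highest genes, below *Foxd1* (0.72) and *Foxf2* (0.69) and above *Peg3*, *Foxd2*, *Nrp1* and *9130024F11Rik*, while *Cdh6* and *Irx3* were lowest (-0.92 and -0.82), before the hemoglobin genes *Hba-a2* and *Hbb-y*. The genes highest with *Gli1* at E14.5 were *Kpna2*, *Aspm*, *Mki67*, *Map2*, *Tpx2*, *Unc5b*, *Hist1h4d* and *Hist1h3c*, several of which are genes of dividing cells, and *Osr1* was lowest (-1.10), before *Pax3*, *Plagl1* and *Nrp1*. At E16.5 they were *Shisa2*, *Aurkb*, *Dleu2*, *Mki67*, *Hist1h3c*, *Dsp*, *Incenp* and *Tpx2*, from 0.60 down to 0.55, and *Hba-a1*, *Dcn*, *Penk* and *Stmn2* were lowest.

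Of 33 other genes of the pathway, 26 could be compared between the lineages at E14.5 and 27 at E16.5, and at each stage 2 were past 2 fold higher and 2 lower in the epithelium, with a median log2 ratio of -0.05 and 0.10 against 0.01 and 0.04 over all genes. Of all genes, 3.48% were higher and 4.05% lower at E14.5, and 3.35% and 4.12% at E16.5. *Scube3*, of the higher genes, was at 45.3 against 10.2 CPM (1.45) and 52.2 against 12.5 CPM (1.47). *Gpc3* was at 111 against 724 CPM (-2.60) and 206 against 423 CPM (-1.0). *Scube1* was at 4.71 against 32.5 CPM (-1.53) and 4.74 against 110 CPM (-3.02). The related *Scube1* and *Scube3* thus lay on opposite sides, with *Scube1* higher in the mesenchyme, as *Ptch1* was, and *Scube3* higher in the epithelium. Between stages none of the 26 pathway genes compared was past 2 fold in the mesenchyme from E11.5 to E14.5 or in the epithelium, and *Scube1* alone was so in the mesenchyme of E16.5 over E14.5 (1.5).

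Of 18 further target genes, 13 could be compared between the lineages at E14.5, with 2 past 2 fold higher and 6 lower in the epithelium, and 15 at E16.5, with 1 higher and 6 lower. The 6 were the same at both stages: *Foxf1*, *Foxf2*, *Foxd1*, *Igf1*, *Osr2* and *Tbx2*. *Foxf1* was at 1.71 against 38.2 CPM (-2.04) at E14.5 and 3.18 against 92.7 CPM (-2.96) at E16.5, *Igf1* at 5.43 against 77.4 CPM (-2.50) and 4.59 against 178 CPM (-3.69), and *Osr2* at 3.71 against 65.0 CPM (-2.45) and 4.27 against 105 CPM (-3.01). *Nkx2-3* was the higher gene at both stages, at 72.1 against 1.96 CPM (2.78) and 47.4 against 2.31 CPM (2.22), and *Ccnd1*, a cyclin of the G1 phase, was higher at E14.5, at 128 against 26.6 CPM (1.92). The share of all genes was, as above, 3.48% higher and 4.05% lower and then 3.35% and 4.12%. The list median was -0.32 and -0.64, against 0.01 and 0.04 over all genes. With 50 CPM added, 5 and 4 genes of both lists were past 2 fold, in place of 12 and 11.

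The listed targets did not all move in 1 direction in the mesenchyme between stages. From E11.5 to E14.5, *Osr2* was past 2 fold higher, at 17.1 and then 65.0 CPM (1.47), and 4 of the 17 compared were lower: *Ccnd1*, at 366 and then 26.6 CPM (-3.36), *Mycn*, at 53.2 and 5.99 CPM (-1.98), *Foxd2*, at 15.7 and 0.727 CPM (-1.26), and *Foxc2*, at 17.7 and 2.41 CPM (-1.16). From E14.5 to E16.5, 3 of 16 were higher, *Ccnd1* (1.42), *Igf1* (1.10) and *Foxf1* (1.09), and none was lower. Over all genes, 2.8% were higher and 1.9% lower in the first step, and 1.21% and 0.376% in the second. The list median was -0.22 and then 0.19, against -0.09 and 0.08 over all genes. *Ptch1* and *Gli1* were thus higher at E14.5 than at E11.5 while *Ccnd1* and *Mycn*, which are targets in other tissues, were lower.

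The genes most like each response gene were sought over 31 cell groups of at least 50 cells from the 3 stages, which share libraries and depth within a stage, by Pearson's r of the log2 level. For *Ptch1* they were *Gli1* (0.88), *Epha7* (0.88), *Adgrl3* (0.86), *Col5a1* (0.86) and *Casc4* (0.86), and for *Gli1* they were *Vegfa* (0.89), *Ptch1* (0.88), *Plekha5* (0.88), *Adgrl3* (0.86) and *Ptprs* (0.86). *Ptch1* and *Gli1* were in each other's list. For *Hhip* they were *Prkg1*, *Dio3*, *Plscr4*, *Naalad2* and *Fxyd1* (0.86 to 0.87), and its r with *Ptch1* was 0.62. For *Shh* they were *Ly6g6e* (0.96), *Has3*, *Plppr4*, *St14* and *Fam83b* (0.93), while its r was 0.03 with *Ptch1*, 0.26 with *Gli1* and -0.65 with *Gas1*. Across cell groups the ligand and its receptor thus had no common course.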

How the data were processed

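The authors dissociated the tissue with collagenase, made 10x Genomics 3′ (v3) libraries, aligned the reads with Cell Ranger (4.0.0) to mm10 and deposited 1 matrix of raw UMI counts per stage, with no normalization. The matrices held 8708, 8192 and 5719 barcodes for E11.5, E14.5 and E16.5. The labels list 4, 4 and 2 samples, but all barcodes of a stage carried 1 suffix and none was repeated, so the samples could not be told apart.

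Cells were kept with 700 or more genes and no more than 20% mitochondrial UMIs. SCTransform (sctransform 0.4.2 in Seurat 5.3.0, R 4.3.3) was applied to their counts, which were reduced to 20 components of 2000 variable genes, from which 60 hedgehog genes were left out, and clustered with the Leiden algorithm (leidenbase 0.1.32) at a resolution of 0.4. Clusters were named from marker lists, with a score of at least 0.45, at least 3 markers in at least 10% of cells and no more markers of another class among the 10 leading genes, a rule set and revised after the data were seen. A cluster of 300 cells at E11.5 was left unnamed. Epithelial cells of E11.5 were chosen cell by cell from the same markers, and 6 of the 10 came from the cluster named muscle and 4 from clusters named mesenchyme. Each lineage was clustered again in the same way.

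Levels are CPM of the summed counts with exact Poisson intervals, shares have exact Clopper-Pearson intervals, and ratios are log2 with 10 CPM added, all at 95% and for counting error only. Genes with at least 50 UMIs over both groups were compared, and 2 fold was the size at which a gene was counted as different. With 1 sample a stage no p-value was computed. The software was python 3.11.15, numpy 2.4.6, scipy 1.17.1 and pandas 2.3.3, and the computation of ratios was tested on simulated data. Scrublet (scanpy 1.11.5) called 0, 0 and 2 cells doublets, and none was removed.

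The members and the lists of 33 pathway and 18 target genes were chosen with earlier results of these data known. Named are the members, the listed genes past 2 fold, the 5 genes most like a member among those with at least 100 UMIs, the 5 leading genes of a cluster or the first of them, and the 8 highest and 4 lowest ratios between cells with and without *Shh* or *Gli1*, among genes seen in 10% or more of the cells on either side. Promoters and their build come from a RefSeq table. A few genes that meet this rule are not reported here.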

Additional observations from a re-analysis of the deposited data

Results flagged for a closer look

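The ratio of *Gas1* in *Gli1*+ over *Gli1*- mesenchyme had opposite signs at E11.5, where it was -0.64, and at E16.5, where it was 0.25. All 5 clusters of each stage had the sign of their stage. The difference between the stages was not tested, and the value of E16.5 was -0.015 with cells thinned to 2000 UMIs.

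The 2135 barcodes left out by the filter at E11.5 held 1750212 UMIs and carried *Ptch1*, *Smo* and *Boc* at levels whose intervals lay above the cells kept. *Ptch1* was at 162.8 CPM (interval 145 to 183) against 109 CPM, *Smo* at 102.8 CPM (88.4 to 119) against 78.9 CPM, and *Boc* at 10.9 CPM (6.54 to 17.0) against 5.03 CPM. *Shh* had 2 UMIs there (1.14 CPM, 0.138 to 4.13) and none in the cells kept. At E14.5 and E16.5 *Ptch1* was lower in the barcodes left out, at 72.5 and 43.5 CPM against 224 and 357 CPM in the cells kept.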

How the results depend on the processing

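No paired analysis was possible because each stage is 1 sample, and leaving out replicates was not run for the same reason. Of 942 values under alternatives, 777 stayed within the main counting interval or, for counts of genes, within 1.5 times. Of the rest, 164 moved beyond it and 1 changed sign, *Gas1* in *Gli1*+ over *Gli1*- mesenchyme of E16.5, which was -0.015 at 2000 UMIs. Thinning, which also left out the cells below the chosen depth, moved more of the values than that. Thinned to 2000 UMIs, 53 of 110 stayed and 56 moved. At 1000 UMIs, 0 of 7 stayed and 7 moved. *Shh* in epithelium over mesenchyme was 5.06 (E14.5) and 5.38 (E16.5) with 1 CPM added, 1.44 and 2.08 with 50 CPM, 2.96 and 3.59 with lineages set by cell from markers, 2.93 and 3.58 with erythroid markers left out of that rule (an alternative chosen after seeing the data), and 2.92 at E14.5 with 2000 UMIs. The share of epithelial cells with a *Shh* UMI was 6.67% and 12.1% at 1000 UMIs and 8.61% and 18.5% at 2000 UMIs. *Gli1* in epithelium over mesenchyme of E16.5 was -0.15 with 50 CPM. *Gli1* in mesenchyme of E14.5 over E11.5 was 1.51 with 1 CPM and 0.54 with 50 CPM, which is short of 2 fold, and that of E16.5 over E14.5 was 0.17 at 2000 UMIs. *Gli1* in the highest over the lowest mesenchymal cluster was 0.78 at E11.5 with a resolution of 1.0, and at E14.5 1.45 with cells of at least 200 genes and 1.49 with the top 5% of doublet scores removed. *Ptch1* in *Gli1*+ over *Gli1*- mesenchyme of E11.5 was 0.53 with 50 CPM, 0.92 for cells with at least 2 *Gli1* UMIs and 0.78 at 2000 UMIs, and that of E16.5 was 0.48 and 0.32 under the last pair. *Ptch1* in *Shh*+ over *Shh*- epithelium of E16.5 was -0.24 at 2000 UMIs. The pathway and target genes past 2 fold between the lineages numbered 5 and 4 at the later stages with 50 CPM, against 12 and 11 with 10 CPM. Ratios of genes at a few CPM depend on the CPM added, and 10 epithelial cells limit what E11.5 can show.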
